A study of Mus musculus with 6 samples.

Results

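The genes described here are 10 markers of liver macrophages, taken by symbol from the deposited gene tables. They comprise Clec4f, Vsig4, Marco and Timd4, which mark the resident macrophages of the liver (Kupffer cells), and Adgre1, Csf1r and Cd68, which are found on macrophages in general. Trem2, Gpnmb and Cx3cr1 mark recruited or lipid-associated macrophages. All 10 symbols were found once each among the 50600 genes of the tables. Whole liver of mice about 1 month old on the C57BL/6 background was sequenced. In 3 samples, Dicer alleles flanked by loxP sites were combined with the Alb-cre transgene, in which the albumin promoter, used by hepatocytes, drives Cre recombinase (Dicer LKO, genotype Dicerloxp/loxp;Alb-cre). The 3 control samples carried the same loxP-flanked alleles without Cre (Dicerloxp/loxp). These controls are called wild type in the series text. Cre was thus directed to hepatocytes and not to macrophages, and all 6 samples carried the floxed alleles.

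Kupffer cells line the liver sinusoids, where they take up bacteria, old red blood cells and cell debris. They are seeded before birth and renew themselves, and when they are lost or when the liver is injured, blood monocytes enter and turn into macrophages that at first lack some Kupffer cell genes. Macrophages of injured or fatty liver are known to make the lipid receptor Trem2 and the glycoprotein Gpnmb. Timd4, in contrast, is known as a gene of long-resident Kupffer cells that newly arrived cells take on late.

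The libraries held 22257541 to 25049749 counts in Dicer LKO and 14141973 to 22152506 in control samples. Dicer1 was at 28.2 ± 3.46 CPM in Dicer LKO livers and 56.0 ± 13.4 CPM in controls (mean ± SD, n = 3 each, without overlap), where CPM is a count divided by the library size in units of 1e6, after scaling of the library sizes. A pair of libraries stood apart. Control replicate 3 was the shallowest, had 10.2% of its counts in mitochondrial genes against 4.62% to 6.46% elsewhere, and held 141 TPM (a level per transcript length, scaled to the same total in each library) of 11 heart muscle markers against 0.350 to 11.7 TPM elsewhere. Dicer LKO replicate 2 had the lowest correlations within its group. The results below are given with and without these libraries where that matters.

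Sequences upstream of the genes are shown for 6 members, because a macrophage factor's core letters or an AP-1 string occur in them, in resident as well as recruited markers. They run from 100 bases before the transcription start to 50 bases after it (RefSeq, GRCm38.p6). The window searched ran from 250 bases before to 50 bases after the start, and was searched for 8 members, while Adgre1 and Csf1r are named only. Capitals mark, on either strand, the core letters of a site of PU.1 (GGAAGT), the factor that drives macrophage development, and the AP-1 site TGANTCA, bound by factors induced on activation.
Clec4f, chr6:83656067-83656216, minus strand: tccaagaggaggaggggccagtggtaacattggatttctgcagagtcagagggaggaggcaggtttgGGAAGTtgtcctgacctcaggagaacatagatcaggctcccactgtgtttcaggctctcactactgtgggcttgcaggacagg
Vsig4, chrX:96293389-96293538, minus strand: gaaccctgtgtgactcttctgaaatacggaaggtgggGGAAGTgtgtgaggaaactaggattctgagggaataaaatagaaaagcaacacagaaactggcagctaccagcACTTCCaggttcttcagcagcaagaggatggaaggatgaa
Timd4, chr11:46810699-46810848, plus strand: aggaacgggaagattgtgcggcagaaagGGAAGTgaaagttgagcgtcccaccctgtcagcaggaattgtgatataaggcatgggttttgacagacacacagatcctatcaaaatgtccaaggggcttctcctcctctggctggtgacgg
Cd68, chr11:69666121-69666270, minus strand: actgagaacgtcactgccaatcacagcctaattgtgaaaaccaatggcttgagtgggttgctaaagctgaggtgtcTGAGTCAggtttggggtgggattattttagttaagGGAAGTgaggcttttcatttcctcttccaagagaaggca
Trem2, chr17:48346301-48346450, plus strand: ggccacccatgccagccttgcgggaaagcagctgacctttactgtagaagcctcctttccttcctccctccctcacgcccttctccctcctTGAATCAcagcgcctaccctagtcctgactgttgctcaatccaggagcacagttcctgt
Gpnmb, chr6:49036418-49036567, plus strand: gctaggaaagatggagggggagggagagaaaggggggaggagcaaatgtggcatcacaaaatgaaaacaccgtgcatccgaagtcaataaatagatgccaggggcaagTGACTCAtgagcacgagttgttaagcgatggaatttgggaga

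Of the 8 members whose windows were searched, Clec4f, Vsig4, Timd4 and Cd68 held GGAAGT, which 23.8% of 32851 mouse promoter windows of the same length also hold. It began 33 bases before the start in Clec4f, 63 before and again 11 after on the other strand in Vsig4, 72 before in Timd4 and 12 after in Cd68. Cd68, Trem2 and Gpnmb held TGANTCA, present in 7.81% of all windows, and Cd68 had a further copy 149 bases before its start. The longer PU.1 string GAGGAAGT (3.20% of all windows; each match also contains GGAAGT) and the E-box CACGTG (7.15%), which factors of the MITF family bind, were in none of the 8. Marco and Cx3cr1 held none of these strings. Such matches are descriptions of the letters and not evidence of binding.

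The 10 members differed in the size of their difference between genotypes, which was not itself tested between members. Trem2 and Cx3cr1 rose about 4-fold in Dicer LKO livers, and Gpnmb was 9.01 times as high on average without passing the test. The Kupffer cell genes Clec4f and Timd4 were within 1.3 times of the controls, with overlapping groups, while the scavenger receptor gene Marco was 3.84 times as high without passing the test. Adgre1, Csf1r, Cd68 and Vsig4 lay between these, at 1.42 to 1.78 times the control mean. Over all genes, edgeR's quasi-likelihood test called 1.29% of 14314 genes at an adjusted p under 0.05, and 2 of the 10 members, both higher. By direction it called 0.741% of all genes higher and 0.552% lower. All Dicer LKO libraries lay above all controls for 6 members, against 12.7% of all genes tested. Trem2 and Gpnmb, both among these, had under 10 counts in every control. They passed the filter on low counts through the Dicer LKO libraries, so their separation, and the call of Trem2, are not independent of that filter. All 10 log2 fold changes were positive, against 48.6% of all genes, with a median of 0.81 against −0.0128. In whole liver, more macrophages, more of an RNA per macrophage and RNA from other cells, such as monocytes for Cx3cr1, cannot be told apart.

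**Figure D1:**
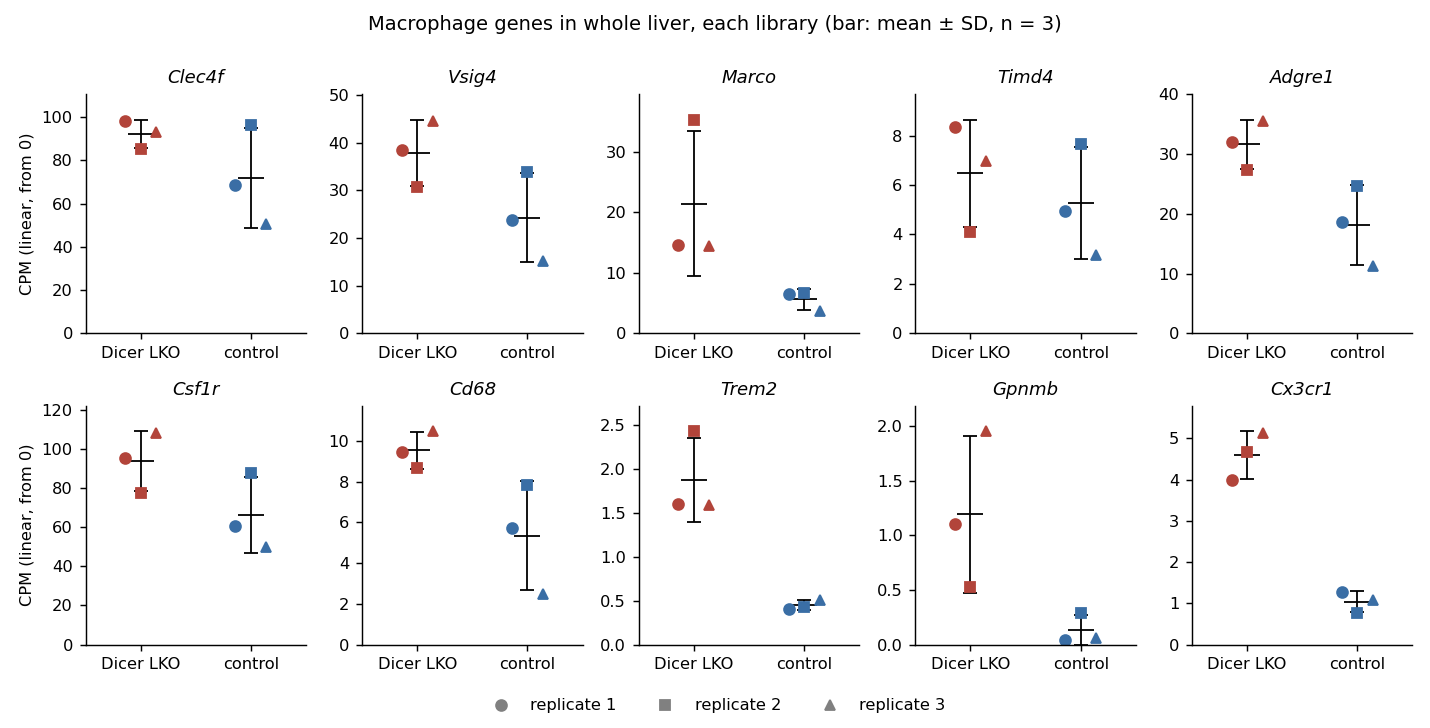
CPM of each member in 3 Dicer LKO and 3 control libraries, on linear axes that start at 0 and differ between panels; symbols show the replicate number and bars the mean ± SD. Trem2, Gpnmb and Cx3cr1 show every Dicer LKO library above every control, while Clec4f and Timd4 overlap.

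Clec4f encodes the C-type lectin receptor that in mice is made almost only by Kupffer cells (chromosome 6, 83644542 to 83656187, minus strand, GRCm38). It measured 98.2, 85.2 and 92.9 CPM in Dicer LKO replicates 1, 2 and 3, and 68.5, 96.2 and 50.5 CPM in control replicates 1, 2 and 3. Control replicate 2 lay among the Dicer LKO libraries, and control replicate 3 was the lowest of all. The log2 fold change was 0.36 (SE 0.23, adjusted p = 0.403). Without control replicate 3 it was 0.18, and without control replicate 2 it was 0.66.

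Vsig4, the complement receptor CRIg that binds C3 fragments on particles in the blood (chromosome X, 96247203 to 96293438, minus strand), had its highest and lowest control in the same libraries as Clec4f. Dicer LKO livers had 38.4, 30.7 and 44.5 CPM, against 23.8, 33.8 and 15.1 CPM in control livers. The groups overlapped through Dicer LKO replicate 2 and control replicate 2 alone. Its log2 fold change was 0.64 (SE 0.29, adjusted p = 0.251).

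Timd4, a receptor for phosphatidylserine on dying cells (chromosome 11, 46810800 to 46844332, plus strand), was the resident gene with the smallest difference. Its 3 Dicer LKO libraries measured 8.35, 4.10 and 6.97 CPM, and the controls measured 4.96, 7.68 and 3.19 CPM. The 2 ranges covered each other almost entirely. The log2 fold change of 0.29 (SE 0.37, adjusted p = 0.700) had an error larger than itself, and was 0.05 without control replicate 3.

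Marco, a class A scavenger receptor for bacteria and particles that inflammatory signals are known to induce (chromosome 1, 120474538 to 120505024, minus strand), had the largest fold of the 4 resident genes. It was at 14.6, 35.3 and 14.4 CPM in Dicer LKO livers and at 6.49, 6.63 and 3.64 CPM in controls, without overlap. Its log2 fold change of 1.93 (SE 0.43) had an adjusted p of 0.0822 by edgeR and was called by DESeq2 (adjusted p = 0.000158). Dicer LKO replicate 2 stood far above the other libraries, and without it the log2 fold change was 1.41. The same library had the highest level of the acute phase gene Saa1, at 1837, 8448 and 1589 CPM in Dicer LKO replicates 1, 2 and 3, against 28.8, 2911 and 10.1 CPM in the controls. Control replicate 2 had high Saa1 without high Marco. Whether the acute phase has a part in the Marco values was not tested, and Saa1 was picked after its values were seen.

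Among the general macrophage genes, Adgre1 encodes the F4/80 antigen, a surface receptor widely used to stain mouse macrophages (chromosome 17, 57358691 to 57483527, plus strand). It measured 32.1, 27.4 and 35.5 CPM in Dicer LKO livers and 18.7, 24.6 and 11.2 CPM in controls. All Dicer LKO libraries lay above all controls, though replicates numbered 2 were close. The fitted log2 fold change was 0.80 (SE 0.27, adjusted p = 0.154).

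Cd68 encodes a lysosomal glycoprotein of phagocytes (chromosome 11, 69664213 to 69666153, minus strand). Its levels were 9.45, 8.67 and 10.5 CPM in Dicer LKO livers, against 5.72, 7.83 and 2.49 CPM in controls. The groups did not overlap, the Dicer LKO libraries lay close together, and control replicate 3 was low with 39 counts. The log2 fold change of 0.82 (SE 0.36, adjusted p = 0.245) was 0.51 without that library.

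Csf1r encodes the receptor for the growth factors CSF1 and IL-34, on which macrophages depend for survival (chromosome 18, 61100598 to 61132149, plus strand). It was at 95.7, 77.9 and 108 CPM in Dicer LKO livers and at 60.9, 87.9 and 50.2 CPM in controls. Control replicate 2 again exceeded Dicer LKO replicate 2. Its log2 fold change was 0.50 (SE 0.23, adjusted p = 0.253). Csf1r shares 873 exonic bases with Hmgxb3 on the opposite strand, which had 331 to 482 counts, and since the strand setting is not given in the sources used here, reads of that overlap cannot be assigned with certainty.

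**Figure D2:**
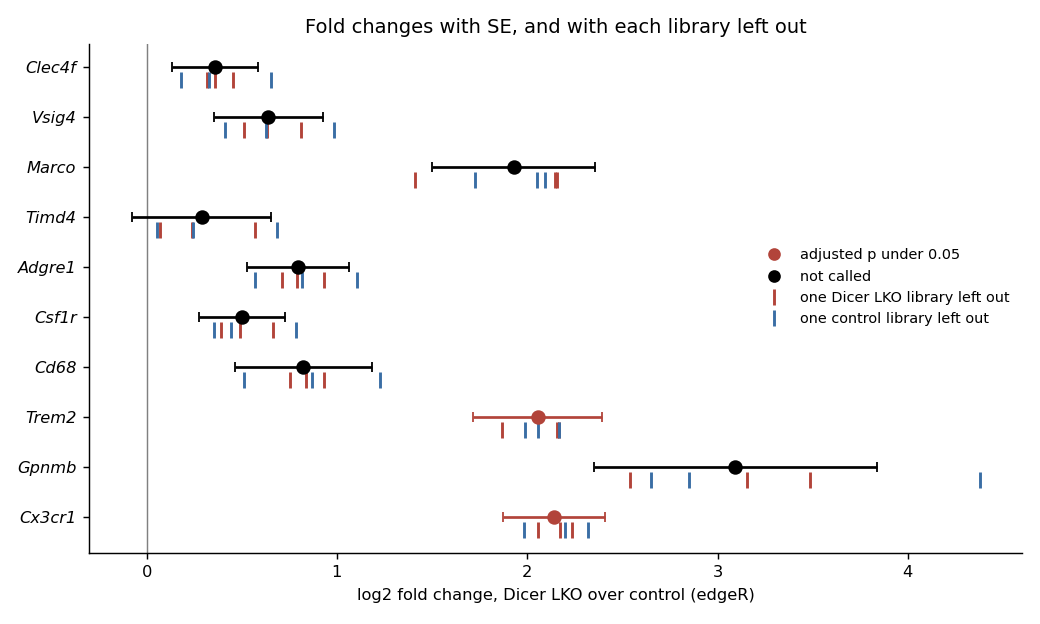
Log2 fold change (Dicer LKO over control, edgeR) with its SE for each member, red where the adjusted p was under 0.05; vertical ticks give the value with a single library left out. Trem2 and Cx3cr1, at 2.06 and 2.14, have narrow ranges of ticks, while those of Gpnmb run from 2.54 to 4.38.

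Trem2, a receptor for lipids and lipoproteins that signals through the adaptor DAP12 (chromosome 17, 48346401 to 48354147, plus strand), rose in Dicer LKO livers. It was measured at 1.61, 2.43 and 1.59 CPM in Dicer LKO replicates 1, 2 and 3 (35, 51 and 40 counts) and at 0.406, 0.432 and 0.510 CPM in control replicates 1, 2 and 3 (9, 9 and 8 counts). The controls were nearly level with each other and the lowest Dicer LKO library was well above them. The means were 1.88 ± 0.480 and 0.449 ± 0.0543 CPM (SD, n = 3 each), and the log2 fold change was 2.06 (SE 0.34, adjusted p = 0.0415). The size of the difference moved little as libraries were left out, from 1.87 to 2.17, but no single-library omission kept the call, with an adjusted p between 0.0584 and 0.119. Trem2 had under 10 counts in every control, so it passed the filter on low counts through the Dicer LKO libraries.

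Cx3cr1, the receptor for the chemokine CX3CL1 on monocytes and some macrophages (chromosome 9, 119901616 to 120069879, minus strand), rose as well. It stood at 3.99, 4.67 and 5.14 CPM in Dicer LKO livers, and at 1.26, 0.768 and 1.08 CPM in controls. No Dicer LKO library came within 3 times of any control. The means were 4.6 ± 0.578 and 1.04 ± 0.250 CPM (SD, n = 3 each), with a log2 fold change of 2.14 (SE 0.27, adjusted p = 0.0196). The call was lost without Dicer LKO replicate 1, Dicer LKO replicate 3 or control replicate 3 (adjusted p = 0.0550, 0.0772 and 0.0634), while the log2 fold change stayed between 1.98 and 2.32. The annotated span of Cx3cr1 covers several other genes, but none of the protein-coding genes among them shares an exonic base with it. The antisense gene Gm33858, with which it shares 78 exonic bases, had 0 to 2 counts.

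Gpnmb, a membrane glycoprotein of lysosome-rich and lipid-laden macrophages (chromosome 6, 49036546 to 49070929, plus strand), was the rarest member. It was measured at 1.10, 0.524 and 1.95 CPM in Dicer LKO livers (24, 11 and 49 counts) and at 0.0451, 0.288 and 0.0638 CPM in controls (1, 6 and 1 counts). The groups did not overlap, but the levels varied several-fold within each. Summed over the libraries, it had 84 counts in Dicer LKO and 8 in control samples. Scaled for depth this is 9.08-fold, and the exact 95% interval, for counting error only, spans 4.40 to 21.7. The log2 fold change of 3.09 (SE 0.75) missed the threshold with an adjusted p of 0.0841, and DESeq2 called it (adjusted p = 0.0143). Like Trem2, it had under 10 counts in every control.

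Compared on the TPM scale, which is per transcript length, the order of the levels was much the same in both groups. Clec4f was the highest at 35.9 ± 3.93 TPM in Dicer LKO livers and 30.8 ± 8.88 TPM in controls (mean ± SD, n = 3 each), clear of Vsig4 at 20.9 ± 4.98 and 14.2 ± 5.0 TPM. Vsig4 and Csf1r (15.4 ± 3.30 and 11.8 ± 3.14 TPM) overlapped in both groups. Adgre1, Cd68, Marco and Timd4 followed, with Marco ahead of Adgre1 in Dicer LKO livers at 8.29 ± 4.29 TPM and behind Cd68 in controls at 2.40 ± 0.720 TPM, in each case without clear separation from its neighbours. Timd4 was at 2.22 ± 0.814 and 1.92 ± 0.758 TPM. In controls it was clear of Trem2, whereas in Dicer LKO livers the 2 ranges overlapped. Trem2 (1.18 ± 0.253 and 0.260 ± 0.0458 TPM) and Cx3cr1 (0.883 ± 0.110 and 0.223 ± 0.0551 TPM) could not be separated from each other in either group, and both were clear of Gpnmb at 0.303 ± 0.176 and 0.0400 ± 0.0436 TPM. The average transcript length that the deposited tables give for Trem2 was 1203 to 1337 bases in the Dicer LKO libraries and 1205 to 2028 bases in the controls, so control replicate 3 had the highest Trem2 of the controls in CPM and the lowest in TPM. For Gpnmb that length ran from 2068 to 3527 and from 1832 to 3701 bases.

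The resident and general markers ordered the control libraries alike, but not the Dicer LKO libraries. In the controls, 7 of the 10 members (Clec4f, Vsig4, Marco, Timd4, Adgre1, Csf1r and Cd68) were highest in replicate 2 and lowest in replicate 3. Trem2 was highest in replicate 3, Cx3cr1 in replicate 1, and Gpnmb lowest in replicate 1. The orders of Trem2, Cx3cr1 and Gpnmb rest on few counts. In control replicates 1, 2 and 3, Trem2 had 9, 9 and 8 counts, Cx3cr1 28, 16 and 17, and Gpnmb 1, 6 and 1. In TPM the Trem2 order was reversed, at 0.30, 0.27 and 0.21. In Dicer LKO livers, Vsig4, Adgre1, Csf1r, Cd68 and Gpnmb were highest in replicate 3 and lowest in replicate 2. Clec4f and Timd4 were highest in replicate 1 and lowest in replicate 2. Marco and Trem2 were highest in replicate 2 and lowest in replicate 3, and Cx3cr1 was highest in replicate 3 and lowest in replicate 1. Over the 6 libraries, the log2 CPM of Clec4f had a Pearson correlation of 0.96 with Vsig4, 0.86 with Timd4 and 0.64 with Marco. It was 0.95 with Adgre1, 0.94 with Csf1r and 0.96 with Cd68. With the recruited genes it was 0.77 for Gpnmb, 0.50 for Trem2 and 0.48 for Cx3cr1. Gpnmb correlated at 0.92 with Csf1r and 0.89 with Adgre1. Trem2 correlated with Cx3cr1 at 0.96 and with Marco at 0.91. These values are descriptions over 6 libraries that share the difference between genotypes, and carry no test.

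**Figure D3:**
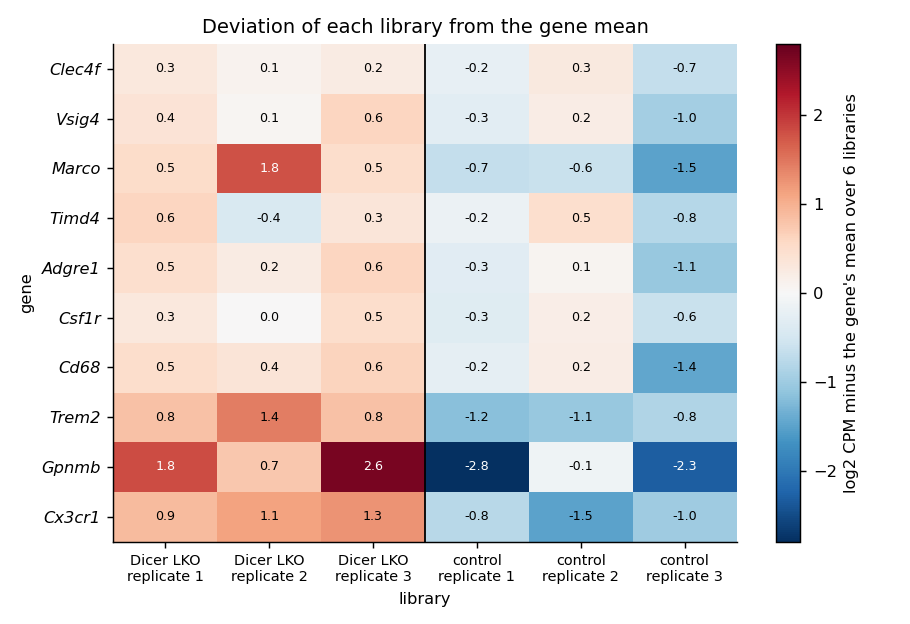
Log2 CPM of each member (rows) in each library (columns) minus the gene's mean over the 6 libraries; red is above and blue below that mean, and the number is the deviation. Control replicate 2 is above the mean for Clec4f, Vsig4, Timd4, Adgre1, Csf1r and Cd68 and below it for Trem2, Gpnmb, Cx3cr1 and Marco.

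To compare recruited with resident markers inside each library, levels were expressed per 100 TPM of Clec4f, as a description without a test. Trem2 stood at 2.80, 4.67 and 2.65 in Dicer LKO replicates 1, 2 and 3, and at 0.995, 0.675 and 0.943 in control replicates 1, 2 and 3. For Cx3cr1 the ratio was 2.08, 2.64 and 2.70 in Dicer LKO livers, against 0.863, 0.400 and 1.122 in control livers. Both ratios were higher in every Dicer LKO library than in any control. The ratio of Gpnmb to Clec4f was 1.03, 0.318 and 1.10 in Dicer LKO livers, and 0.0664, 0.225 and 0.0449 in controls, again without overlap. Timd4 showed no such separation, with 7.38, 4.16 and 6.66 in Dicer LKO livers and 6.11, 6.80 and 5.43 in controls. Csf1r overlapped too, at 42.7 ± 6.26 and 38.7 ± 2.04 (SD, n = 3 each). Adgre1 was modestly higher per Clec4f, at 19.5 ± 2.18 and 13.8 ± 1.27, and Vsig4 at 57.8 ± 9.70 and 45.5 ± 3.60, both without overlap. The resident gene Marco was separated as well, at 14.8, 42.1 and 15.7 in Dicer LKO livers and 9.72, 6.72 and 7.09 in controls. Cd68 per Clec4f was at 17.75 ± 1.59 and 12.1 ± 3.46, also without overlap. The separated ratios thus included resident as well as recruited genes. All ratios share Clec4f as denominator, and the share of all genes separated in this way was not computed. Apart from Vsig4, the genes with separated ratios also had no overlap in CPM. Taken per 100 TPM of Cd68 instead, Trem2 was at 17.5, 25.9 and 13.8 in Dicer LKO livers and at 7.37, 4.63 and 11.6 in controls. In CPM that ratio overlapped, because control replicate 3 reached 20.5 from 8 counts of Trem2 and 39 of Cd68. Cx3cr1 per Cd68 overlapped on both scales through the same library.

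**Figure D4:**
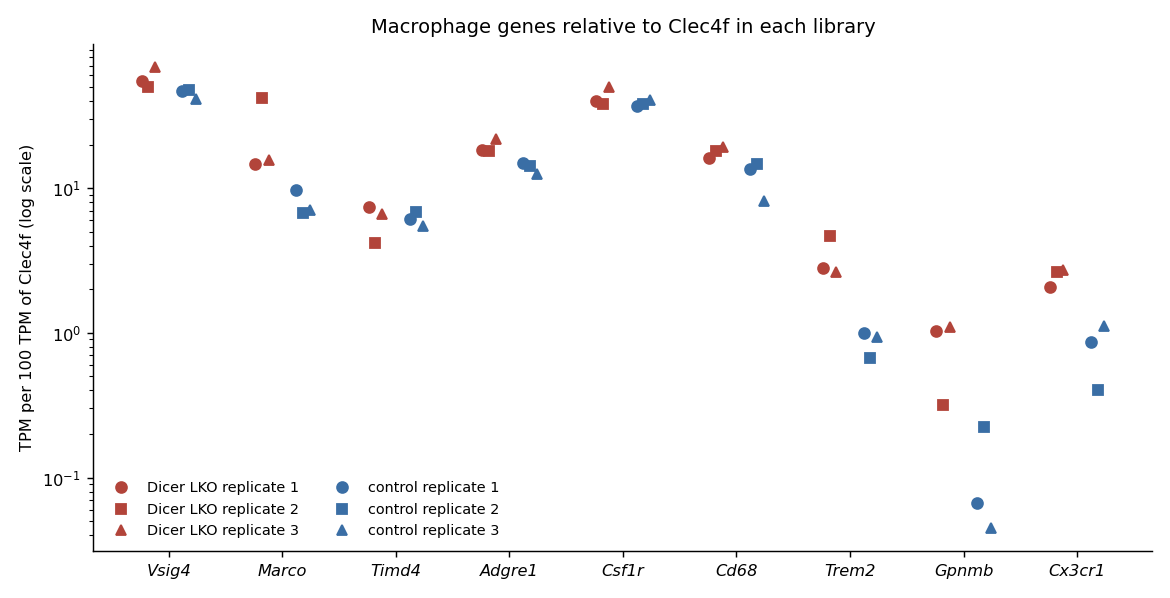
TPM of 9 members per 100 TPM of Clec4f in each library, on a log axis; red symbols are Dicer LKO and blue symbols control libraries. Marco, Vsig4, Adgre1, Cd68, Trem2, Gpnmb and Cx3cr1 lie higher in all 3 Dicer LKO libraries than in any control, and Timd4 and Csf1r do not separate.

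For other gene lists, counts are read against all genes tested, of which 8.88% were higher and 12.1% lower at an unadjusted p under 0.05. DESeq2 called 3.0% higher and 3.77% lower of the 16222 genes for which it gave an adjusted p. Other genes of Kupffer cell identity were centred near no difference and near these shares. Of 15 such genes, all tested, 0 were called by edgeR, with 1 higher and 2 lower at an unadjusted p under 0.05, and DESeq2 called 0 higher and 1 lower. Their median log2 fold change was 0.06, and ran from −0.04 without control replicate 3 to 0.34 without control replicate 2. The ferroportin gene Slc40a1, which exports iron, was at 182 ± 25.7 CPM in Dicer LKO livers and 185 ± 42.8 CPM in controls, and the complement component gene C6 at 200 ± 34.4 and 251 ± 34.1 CPM (adjusted p = 0.973 and 0.373). Hepatocytes also make C6, Nr1h3, Slc40a1 and Id3, so those members do not report on macrophages alone. Cd5l, a secreted protein of Kupffer cells, was at 116 ± 17.95 and 90.4 ± 52.3 CPM (log2 fold change 0.35, SE 0.39, adjusted p = 0.657).

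General myeloid and phagocyte genes had mostly higher values in Dicer LKO livers, without a single call. All 18 had positive log2 fold changes, with a median of 0.80, and 9 of them (50%) had every Dicer LKO library above every control, against the 12.7% of all genes given above. EdgeR called 0, with 11 higher at an unadjusted p under 0.05, and DESeq2 called 5. The lysozyme gene Lyz2 was at 107 ± 38.9 CPM in Dicer LKO livers and 61.6 ± 17.7 CPM in controls (adjusted p = 0.196), and the complement gene C1qa at 63.3 ± 4.15 and 35.3 ± 12.0 CPM (adjusted p = 0.105). Without Dicer LKO replicate 2 and control replicate 3, 16 of the 18 were positive, with a median of 0.67, and without control replicate 2 alone the median was 1.20. The 10 monocyte genes had a median of 0.94 (1.52 without control replicate 2), with 9 positive, 0 called, 7 higher at an unadjusted p under 0.05 and 2 called by DESeq2. Among them Ly6c2, the antigen of inflammatory monocytes, was at 3.31 ± 1.496 and 1.15 ± 0.663 CPM (adjusted p = 0.141) and Plac8 at 9.65 ± 0.558 and 5.23 ± 3.02 CPM (adjusted p = 0.224).

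Genes known from lipid-associated macrophages included 2 that rose. Of 17 genes, 16 were tested, 2 were called higher and 0 lower, and the median log2 fold change was 0.86. Osteopontin (Spp1), a secreted phosphoprotein that bile duct cells also make, was at 180 ± 62.4 CPM in Dicer LKO livers and 31.8 ± 8.50 CPM in controls (log2 fold change 2.51, SE 0.30, adjusted p = 0.0196). Its call was lost without control replicate 3 (adjusted p = 0.0688) and without both libraries that stood apart (adjusted p = 0.0770). Of 8 bile duct markers, 6 were positive, and Epcam and Cftr were called higher. None was called without Dicer LKO replicate 1, Dicer LKO replicate 3, control replicate 2 or control replicate 3. The summed level of the 8, in which Tstd1 and Pkhd1 were the highest, overlapped, at 12.4 to 27.9 TPM in Dicer LKO livers and 16.2 to 27.6 TPM in controls. The part of bile duct cells in the Spp1 value was not tested. The tetraspanin gene Cd63 was at 4.18 ± 0.635 and 1.64 ± 0.238 CPM (1.34, SE 0.24, adjusted p = 0.0470), and its call was lost without any 1 of the libraries. A copy of it, Cd63-ps, had 4 to 9 counts. Apoe, a ligand of TREM2 that hepatocytes make in large amounts, dominated the list's summed level and did not differ beyond its spread (10670 ± 2741 and 11060 ± 2814 CPM, adjusted p = 0.945).

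In the Trem2 pathway itself, the adaptor and signalling genes were not called. Of 8 genes, 7 were tested, all positive (median 0.40 on the log2 scale, and 0.70 without control replicate 2). EdgeR and DESeq2 called 0, and 2 were higher at an unadjusted p under 0.05 by edgeR. Every Dicer LKO library lay above every control for 4 of the 7 (57.1%), against 12.7% of all genes. Tyrobp, which encodes the DAP12 adaptor, was at 14.8 ± 2.51 CPM in Dicer LKO livers and 7.12 ± 3.75 CPM in controls (log2 fold change 1.04, SE 0.37, adjusted p = 0.180). The protease gene Adam10, whose product sheds TREM2 from the surface, was at 39.8 ± 3.14 and 32.1 ± 4.24 CPM (adjusted p = 0.261).

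Among 9 ligands and niche genes, 1 was called higher by edgeR and 3 by DESeq2. The median log2 fold change was 0.17, but it was 0.77 without control replicate 2 and 0.0057 without both libraries that stood apart. Gdf2, which encodes BMP9, a factor of hepatic stellate cells known to maintain Kupffer cells, was at 30.6 ± 0.450 CPM in Dicer LKO livers and 18.5 ± 1.13 CPM in controls (0.72, SE 0.12, adjusted p = 0.0414). That call was lost without any 1 library other than control replicate 1. Cx3cl1, the ligand of Cx3cr1, was at 1.39 ± 0.594 and 0.347 ± 0.0983 CPM without overlap (1.97, SE 0.45, adjusted p = 0.0773). The CSF1R ligands Csf1 and Il34 were at 15.7 ± 0.439 against 14.4 ± 3.56 CPM and 1.37 ± 0.203 against 0.819 ± 0.186 CPM (adjusted p = 0.753 and 0.245). These 3 were named because their receptors are members. Apoe, described above, and Clu had the highest TPM of this list. Clu stood at 2482 ± 468.5 CPM in Dicer LKO livers against 1360 ± 509.2 CPM in controls, without overlap (0.87, SE 0.32). EdgeR did not call Clu (adjusted p = 0.184). DESeq2 did (adjusted p = 0.0452), as the only 1 of 15 alternatives. The 14 lysosome and MiT/TFE factor genes had a median log2 fold change of 0.21, with 9 positive. The abundant Lamp1 and Lamp2, both lysosomal membrane proteins, had values of 0.22 and 0.28 (adjusted p = 0.570 and 0.450).

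**Figure D5:**
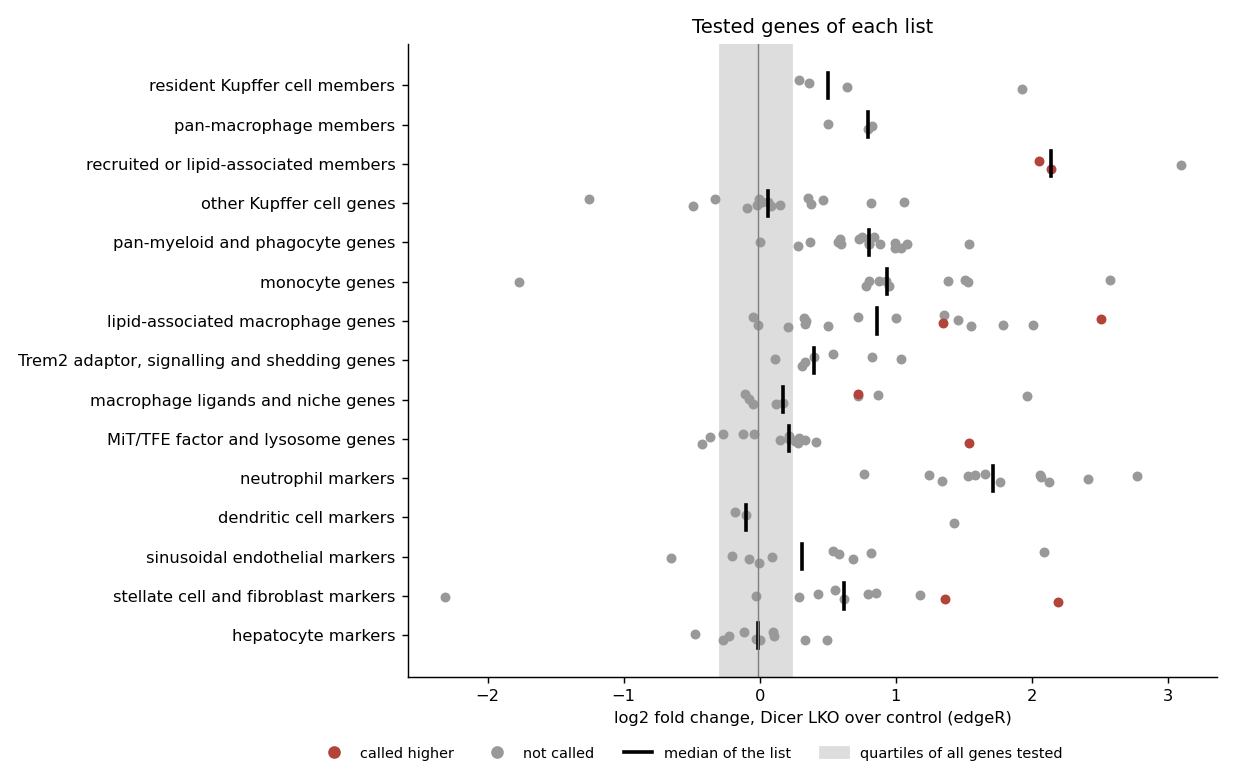
Log2 fold change (Dicer LKO over control, edgeR) of each tested gene, by list; red points were called higher, black bars are medians, and the grey band spans the quartiles of all genes tested. Recruited members have a median of 2.14, neutrophil markers 1.71, general myeloid genes 0.80 and other Kupffer cell genes 0.06. Some lists are not drawn: erythroid (median 2.91), bile duct (1.55), B and plasma cell (0.90), T and NK cell (0.32) and heart muscle markers (−2.29).

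Markers of other cells were summed beside these results. Neutrophil markers, 12 of 13 tested, were all positive (median 1.71 on the log2 scale, and 2.71 without control replicate 2), and edgeR called 0 (7 higher at an unadjusted p under 0.05, 3 by DESeq2). Their summed level was 58.0 to 156 TPM in Dicer LKO livers and 4.97 to 43.0 TPM in controls, mostly from S100a9 and S100a8. Monocytes share several of those genes, and their part in the macrophage values was not tested. Dendritic cell markers, of which 3 of 8 passed the filter, were at 2.54 to 3.31 and 2.58 to 3.32 TPM in sum, and T and NK cell markers at 2.77 to 3.98 and 2.36 to 3.73 TPM, both with overlapping groups. B and plasma cell markers summed to 12.2 to 33.0 and 8.89 to 15.2 TPM. Sinusoidal endothelial markers were at 135 to 136 and 102 to 130 TPM, and stellate cell and fibroblast markers at 154 to 180 and 108 to 121 TPM, with Pdgfra and Lum called higher. Erythroid markers stood at 1786 to 3500 TPM in Dicer LKO livers and 368 to 535 TPM in controls. Of 7 tested, with a median log2 fold change of 2.91, 6 were called higher, and 0 without control replicate 3. The 10 hepatocyte markers had a median of −0.01 and 0 calls, with 0 also at an unadjusted p under 0.05 and by DESeq2. None of the 20 lists contained a marker at 0 in every library.

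The genes most like a member were sought by the Pearson correlation of log2 CPM over the 6 libraries. For Trem2 the closest were Vwf (0.996), Phf11d (0.993), Slc43a3 (0.993) and Spats2l (0.992), of which Vwf, the von Willebrand factor gene of endothelium and platelets, was called higher (32.1 ± 6.49 CPM in Dicer LKO livers and 11.8 ± 1.48 CPM in controls, adjusted p = 0.0196). For Clec4f they were Ncoa7 (0.993), Fer (0.993), Adam23 (0.992) and Lgals3 (0.988), none of them called (adjusted p = 0.271 to 0.511). With 6 libraries such values are common: 293 of 10856 genes exceeded 0.9 with Trem2, and 248 with Clec4f.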

How the data were processed

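RNA from whole liver was sequenced in 3 Dicer LKO and 3 control samples, grouped by genotype and numbered from the titles. The labels do not state that samples are separate animals, so p-values measure the spread between samples, which may be partly technical. Per the file headers, the authors deposited an expected count per gene (estimated reads, not normalized) and a TPM value (per effective length) in the columns RSEM writes. Per the submitters' processing notes, the tools included CASAVA and Bowtie, and the named build is the human hg19 despite mouse identifiers. For the kit, the strand setting and the annotation, the answer is not given in the sources used here. Identifiers matched GENCODE M21 (GRCm38) for 99.56% of 50600 genes, and places came from it. Where 2 identifiers shared a symbol (Itgam, Lilrb4a), the one with more counts was used.

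Expected counts were rounded (96.1% to 96.5% were whole already), filtered with filterByExpr, scaled with TMM and tested with edgeR 4.0.16 (quasi-likelihood, robust, genotype only) under R 4.3.3. Calls needed an adjusted p (Benjamini-Hochberg, over 14314 genes) under 0.05. For each gene, dividing the absolute log2 fold change by the root of the F statistic gave its SE. Alternatives used DESeq2 1.42.0 and limma 3.58.1, the latter on counts (voom) or on log2(TPM + 0.1). The fit was tested on simulated data with known changes. In the first version, simulated with gene-wise dispersions, the share of false calls was about double the nominal rate and failed the limit set for it in 2 of 3 simulations. Simulations with trended dispersions were then added and the limit was applied to those alone. In the final version, whose random draws differ, both kinds lay near the nominal rate. The false call rate under gene-wise dispersions is therefore uncertain, and calls close to the threshold, Trem2 included, should be read with that in mind. With 3 against 3, an exact permutation test cannot give less than 0.1, so none is reported. No libraries were identical. The members and the lists were chosen with earlier results of these data known. Named list genes were the called ones (up to 4), or the 2 with the highest TPM where fewer than 2 were called; Cd5l, the receptor ligands, Saa1 and genes in the closing section were added after values were seen. Control replicate 3, with the fewest counts, gives the least precise values. The result of 1 gene of the lysosome list is not reported here.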

Additional observations from a re-analysis of the deposited data

How the results depend on the processing

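All 10 members kept a positive log2 fold change in each of the 15 alternatives (14 for Gpnmb, which a minimum of 1 CPM in 3 libraries removed). For members without overlap in CPM, leaving libraries out is little check of the sign. The other settings refit the same libraries. The number called, 2 with all libraries, depended on the setting. It was 1 with library totals or limma-voom, 3 without a filter (Gpnmb added) and 4 with DESeq2, and 0 to 1 without each library in turn. It was 0 without Dicer LKO replicate 1, Dicer LKO replicate 3 or control replicate 3, where 5, 4 and 6 members had an unadjusted p under 0.05. Without both libraries that stood apart, an alternative chosen after seeing the data, it was 0, with 7 members at an unadjusted p under 0.05 by edgeR. Cx3cr1 was called in 11 of 15 alternatives, Trem2 in 5, Marco in 2, Gpnmb in 2 of 14 and the other members in none. Genes called over the whole table numbered 185 (57.3% higher), against 103 with library totals (48.5% higher), 104 with limma-voom, 422 without a filter (49.1%), 1098 with DESeq2 (44.3%), 44 without both libraries (70.5%) and 23 to 389 without each library in turn (19.5% higher without control replicate 1). Library totals shifted the median of all genes to −0.13, with the members' median at 0.72. The replicate numbers gave no clear sign of pairing. Deviations of same-numbered libraries correlated at 0.11, 0.06 and −0.10, and those of differently numbered libraries at −0.16 to 0.10. With 3 libraries per group this cannot exclude a pairing. With the replicate block, 245 genes and 2 members (Marco and Cx3cr1) were called, and Trem2 had an adjusted p of 0.0582. Near-zero values changed sign for Slc40a1 (−0.18 to 0.13 without each library in turn; 0.0099 with limma-voom, 0.13, 0.11 and 0.08 without Dicer LKO replicate 2, control replicate 1 and control replicate 2) and for Apoe (−0.17 to 0.19 without each library in turn; 0.19 and 0.17 without Dicer LKO replicate 2 and control replicate 1, and 0.0057 without both libraries). The cause of these changes was not tested. All 126 alternative values of the ratios between members stayed within the spread between libraries. Where 1 library was left out this is no check, because that step always moves a group mean by less than this spread. The log2 ratio change of Timd4 per Clec4f went from −0.05 to 0.20 without Dicer LKO replicate 2 and to 0.03 without control replicate 2. That of Adgre1 per Cd68 went from −0.11 to 0.08 without control replicate 3. With 8 or 9 counts of Trem2 and 1 to 6 of Gpnmb in a control library, depth limits the precision of both folds.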

Other observations

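Id3, a transcription regulator that Kupffer cells require and that other liver cells also express, was at 9.19 ± 1.82 CPM in Dicer LKO livers and 22.0 ± 6.44 CPM in controls, without overlap (log2 fold change −1.26, SE 0.25, adjusted p = 0.0625 by edgeR's quasi-likelihood test). The integrin gene Itgam, which encodes CD11b of monocytes and neutrophils, was at 6.63 ± 0.700 and 2.27 ± 0.924 CPM (1.53, SE 0.31, adjusted p = 0.0634). The macrophage elastase gene Mmp12 was at 1.53 ± 0.494 and 0.383 ± 0.0978 CPM (2.01, SE 0.40, adjusted p = 0.0624). Nr4a1, a factor of patrolling monocytes, was at 0.998 ± 0.111 and 3.44 ± 2.60 CPM (−1.77, SE 0.75, adjusted p = 0.242), with overlapping groups. EdgeR called none of these 4 genes, while DESeq2 called Id3, Itgam and Mmp12 (adjusted p = 0.000993, 0.000953 and 0.0128) and not Nr4a1 (adjusted p = 0.107).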
